A study of Homo sapiens with 64 samples.

Results

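Cells can die by apoptosis through a mitochondrial route, which proteins of the BCL2 family govern, and through death receptors on the cell surface. The 10 genes described here belong to both routes: BCL2, BCL2L1, MCL1, BAK1, BCL2L11, PMAIP1, BID, BIK, BMF and TNFRSF10B. They were taken by symbol from a deposited table of read counts for 60649 genes, and all 10 were found there. Total RNA had been sequenced from cultures of the established lines H460, H838, H1703 and H1755, which derive from human non-small cell lung cancers. The 4 lines were given DMSO alone (vehicle), MYCi975 at 5 µM, which inhibits MYC, TMP195 at 25 µM, which inhibits histone deacetylases of class IIa, or both compounds, called the combination here. Treatment lasted 24 hours, all groups were grown in the same serum-containing medium, and each of the 16 groups held 4 replicate libraries, 64 in all. The labels do not say whether replicates came from separate cultures, so p-values measure the spread between these libraries, which may be technical.

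In the mitochondrial route, BCL2, BCL2L1 and MCL1 encode proteins that hold apoptosis back by binding their relatives. BAK1 encodes an effector that forms pores in the outer mitochondrial membrane. BCL2L11 (BIM), PMAIP1 (NOXA), BID, BIK and BMF encode BH3-only proteins, which share a short domain with the rest of the family and either block the protective proteins or activate the effectors. TNFRSF10B encodes death receptor 5, 1 of the receptors for the ligand TRAIL, and caspase-8 activated at such receptors can cut BID and so link both routes. Transcription of PMAIP1 and TNFRSF10B is known to respond to the stress factors ATF4 and CHOP (encoded by DDIT3), and both are often examined in lung cancer cells under drug treatment.

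Promoter stretches are shown for PMAIP1, which rose with the combination, and for BID, which fell with it in H1703, because a motif tied to stress factors or to MYC stands in them. Of the 10 genes, 7 matched the RefSeq promoter table (GRCh38.p14, 250 bases before to 50 after each start), with 13 promoters. Letters searched on both strands were CACGTG (the E-box that MYC can bind), TGATGNAA (a composite element of CHOP and ATF4), TGACGT (a half-site of the cAMP response element) and the MEF2 box. Of all 35116 promoters in the table, 7.26% held CACGTG, 3.62% TGATGNAA, 7.98% TGACGT and 0.572% the MEF2 box. Only 2 of the 7 matched genes held any of them, while the shares above are per promoter. TNFRSF10B, MCL1 and BIK had no match in the promoter table and were not searched. Capitals mark the motif, which in PMAIP1 begins 56 bases before the RefSeq start and reads TGACGT on the other strand. The E-box of BID begins 47 bases before 1 of its RefSeq starts. A match of letters describes the sequence and is not a measured binding site.
PMAIP1, chr18:59899876-59899947, plus strand, 5′ to 3′: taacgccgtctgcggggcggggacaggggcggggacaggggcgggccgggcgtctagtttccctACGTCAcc
BID, chr22:17774072-17774101, minus strand, 5′ to 3′: ttgtgtcctctcCACGTGgcctggggattc

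Values below are CPM (counts scaled to a common library total), computed from the deposited counts with TMM-scaled library sizes. Libraries held 17352066 to 34236552 counted reads. A change is the log2 fold change of treated over vehicle with its standard error (SE), from 4 libraries against 4, and a gene was called at an adjusted p below 0.05 in edgeR's quasi-likelihood test with Benjamini-Hochberg adjustment over all genes tested in that line. Libraries fell into batches that the treatments do not explain. Replicate 4 was taken as a batch of its own. Mitochondrial ribosomal RNA took 5.12% to 10.7% of its counts, against 10.1% to 19.1% in 36 libraries called the first batch here. By this share replicate 4 did not stand apart in every group. In H838 with TMP195 it had 9.23%, against 8.31%, 10.2% and 8.94% in replicates 1 to 3. In H1703 with the combination it had 7.32%, against 7.39% in replicate 2. In H460, 7 libraries of replicates 1 and 2 (13.9% to 16.4%) hold 638.9 to 759.1 CPM of EEF1G, which is listed at 0 in all other libraries, and are called overlap-counted here. That name rests on the EEF1G counts alone. Neither the labels nor the column names say that these libraries were counted differently. A further 5 libraries have columns named in another style (7.39% to 10.2%), among them TMP195 replicates 1 to 3 of H838. Results for the 10 genes are therefore also given with a term for library batch where that changes the call. Where same-numbered libraries of both groups deviated together, the fit with the replicate number as a block is given too. Of the markers of epithelial and carcinoma cells, KRT8 ranged from 14.2 CPM in H1703 to 2042 CPM in H460. CDH1 did not exceed 0.173 CPM in H460 and EPCAM did not exceed 0.604 CPM in H1703. VIM, a mesenchymal marker, was at 401 CPM or more in every library. Among markers of other cell types, the leukocyte gene PTPRC stayed at or below 0.159 CPM and the fibroblast gene COL1A2 at or below 0.0827 CPM, and CD68 reached 32.2 CPM in overlap-counted libraries of H460.

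The combination changed the most of the 10 genes. Against vehicle it was called for 11 of 38 tested pairs of gene and line, 8 higher and 3 lower, since BIK could not be tested in H838 and H1755. In H460, 5 of 10 genes were called, where 15.7% of all genes tested were. In H1703, 4 of 10 were called, close to the 38.3% of all genes there, so that count says nothing particular about these genes. In H838 it was 1 of 9 (3.24% of all genes) and in H1755 1 of 9 (1.69%). The median log2 fold change of the tested genes under the combination was 0.63 for H460, where that of all genes was -0.03. The other lines gave -0.06 (all genes -0.003, H838), 0.06 (all genes 0.02, H1703) and 0.03 (all genes 0.0007, H1755). In H460 the set was split: 6 of the 10 changes lay above 0, among them those of BIK and BMF, at 15 counts or fewer a library. With the batch term 19 pairs were called, 12 higher and 7 lower: H460 had 8 of 10 (31.5% of all genes), H838 4 of 9 (17.7%), H1703 5 of 10 (45.8%) and H1755 2 of 9 (15%). With the replicate block, 3 of 9 were called in H838 (14.9% of all genes) and 5 of 9 in H1755 (24.2%), where the numbers pair the libraries.

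Single agents changed fewer of them. MYCi975 was called for 2 pairs, BID lower and TNFRSF10B higher, both in H1703, where 10.2% of all genes were called. In the other lines edgeR called 0 of these genes, beside 1.09% of all genes in H460, 0% in H838 and 0.0643% in H1755. An unadjusted p below 0.05 was seen for 3, 1 and 1 of them there, and DESeq2 called 0 in each line. TMP195 was called for 2 pairs, BCL2 and TNFRSF10B, both higher in H1703 (9.65% of all genes). For the remaining lines edgeR called 0, beside 1.13% (H460), 0.572% (H838) and 0.43% (H1755) of all genes. Unadjusted p was below 0.05 for 2, 1 and 1 genes, and 1, 0 and 1 were called by DESeq2. With the batch term MYCi975 was called for 7 pairs: H460 had 3 (7.5% of all genes), H838 0 (0.354%), H1703 3 (24.5%) and H1755 1 (2.41%). TMP195 was also called for 7: H460 had 1 (5.48%), H838 0 (0.32%), H1703 4 (22.7%) and H1755 2 (4.29%). With the replicate block in the paired lines, MYCi975 was called for 1 in H460 (6.52%), 4 in H1703 (25.6%) and 3 in H1755 (9.23%). TMP195 was called for 1 gene of H460 (5.15%), 2 of H838 (7.46%), 4 of H1703 (23.8%) and 2 of H1755 (10.5%). In H838 TMP195 replicates 1 to 3 belong to another batch than the vehicle's, which the block cannot tell apart from treatment. The 3 comparisons of a line share its vehicle libraries.

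**Figure D1:**
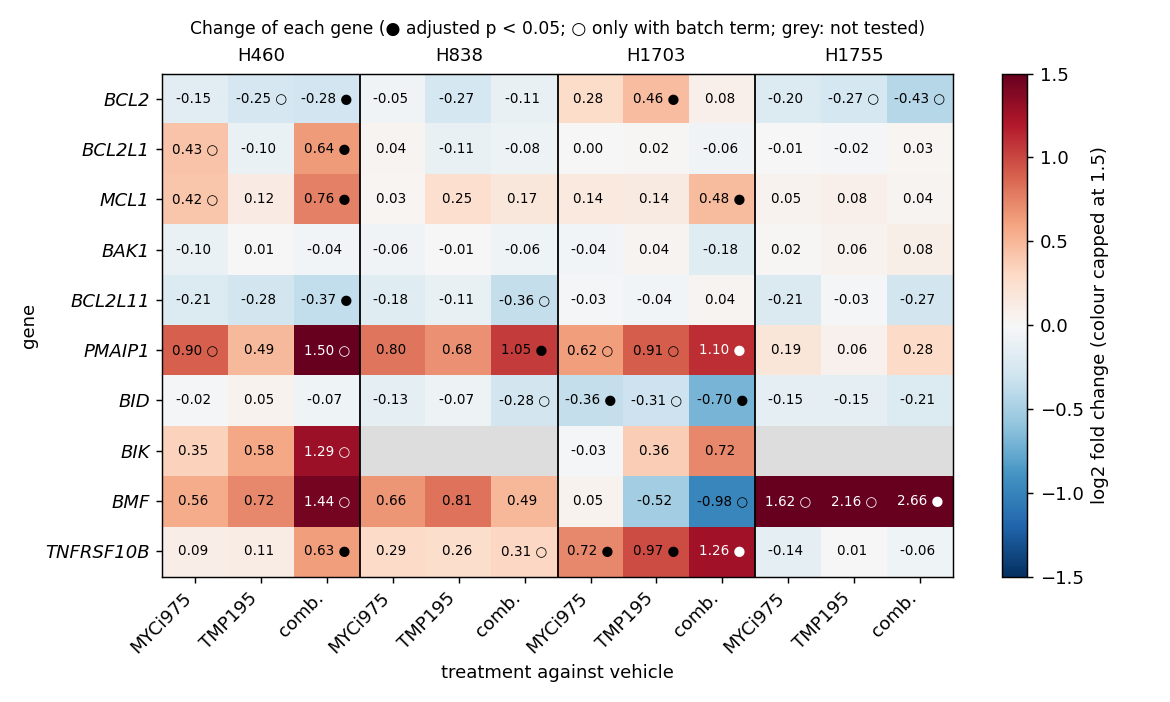
Log2 fold change of each of the 10 genes (rows) against vehicle for MYCi975, TMP195 and the combination in the 4 lines (columns), from 4 libraries against 4. Filled circles mark genes called at an adjusted p below 0.05 and open circles those called only with the batch term: TNFRSF10B has 3 filled circles in H1703, and BAK1 has none.

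TNFRSF10B rose in H1703 with each treatment and was called more often than any other of the 10 genes, in 4 of 12 comparisons against vehicle. It lies at chr8:23020133-23069179 on the minus strand (GRCh38, GENCODE 29). In H1703 its vehicle libraries held 22.3, 24.2, 23.1 and 26.9 CPM in replicates 1 to 4. MYCi975 libraries held 32.4, 29.98, 33.97 and 63.3 CPM, TMP195 libraries 43.3, 39.3, 45.8 and 61.1 CPM, and combination libraries 52.9, 62.1, 52.5 and 66.5 CPM. Every treated library was above every vehicle library, and replicate 4 was the highest in each group. The change was 0.72 ± 0.19 with MYCi975 (adjusted p = 0.0223), 0.97 ± 0.19 with TMP195 (adjusted p = 0.00392) and 1.26 ± 0.19 with the combination (adjusted p = 7.54e-05). Within batches the combination to vehicle ratio was 2.27 in the first batch and 2.47 in replicate 4. The MYCi975 call was lost without any 1 of vehicle replicates 1, 2 or 3 (0.68, 0.72 and 0.70, adjusted p 0.0526 to 0.067). It was also lost without MYCi975 replicate 4 (0.41, adjusted p = 0.0742). Leaving out replicate 1, 2 or 3 of every group ended it too (0.75, 0.83 and 0.77, adjusted p = 0.0969, 0.0565 and 0.0957). The TMP195 call was lost without replicate 1 (0.96, adjusted p = 0.05235) or replicate 3 (0.96, 0.0571) of every group.

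In H460 the gene rose with the combination. Vehicle libraries held 79.2, 80.1, 93.3 and 99.9 CPM and combination libraries 124, 126, 108 and 187 CPM, so the groups did not overlap. The change was 0.63 ± 0.17 (adjusted p = 0.0202), with within-batch ratios of 1.25, 1.56 and 1.87 in the first batch, the overlap-counted libraries and replicate 4. This call was lost without vehicle replicate 1 (0.59, adjusted p = 0.0628), vehicle replicate 2 (0.59, adjusted p = 0.056) or combination replicate 4 (0.44, adjusted p = 0.0608). It was also lost in the first batch alone (0.34, adjusted p = 0.257) and without replicate 1 (0.62, 0.134) or replicate 2 (0.63, 0.108) of every group. MYCi975 gave 0.09 ± 0.17 and TMP195 0.11 ± 0.17, neither called. In H838 the combination gave 0.31 ± 0.18, called only with the batch term (0.28 ± 0.09, adjusted p = 0.0356). In H1755 every change was smaller than its SE, with -0.06 ± 0.22 under the combination. A test of line by treatment, over the 4 lines, called TNFRSF10B for TMP195 (adjusted p = 0.0303) and for the combination (adjusted p = 0.0036). For MYCi975 it was not called, and was with the replicate block (adjusted p = 0.014).

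PMAIP1 rose with the combination in H838 and H1703. It lies at chr18:59899948-59904306 on the plus strand, and the half-site shown above stands just before it. In H460 its vehicle libraries held 19.6, 18.3, 20.7 and 40.2 CPM and its combination libraries 64.2, 48.9, 46.1 and 118 CPM. All combination libraries were above all vehicle libraries, and replicate 4 was the highest of each group. The change of 1.50 ± 0.50 was not called (adjusted p = 0.0582), and with the batch term it was 1.54 ± 0.13 (adjusted p = 1.42e-08). Within batches the ratio was 2.3, 3.39 and 2.95.

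In H838 PMAIP1 rose with the combination, from 15, 10.9, 11.2 and 10.3 CPM to 23.8, 19.4, 22.2 and 32.1 CPM, with no overlap. The change was 1.05 ± 0.25 (adjusted p = 0.0301). It was lost without any 1 of vehicle replicates 2, 3 and 4 (1.00, 1.02 and 0.97) or combination replicates 1, 3 and 4 (1.05, 1.08 and 0.88), at adjusted p 0.0518 to 0.0907. Leaving out replicate 1, 2 or 3 of every group also ended it (1.19, 1.10 and 1.07, adjusted p = 0.192, 0.0564 and 0.216). So did 1 fit of all 64 libraries (1.04, adjusted p = 0.138). In H1703 it rose from 37.03, 23.2, 23.6 and 41.9 CPM to 60.8, 76.4, 46.4 and 89.8 CPM. There the change was 1.10 ± 0.29 (adjusted p = 0.00535), with ratios of 1.92 in the first batch and 2.15 in replicate 4. No single library ended that call, but leaving out replicate 2 of every group did (0.93, adjusted p = 0.0604). In H1755 it was not called: vehicle libraries held 36.1, 47.1, 54.5 and 75.7 CPM and combination libraries 50.1, 55.5, 54.2 and 101 CPM, which overlap, and the change was 0.28 ± 0.30 (0.27 ± 0.07 with the replicate block, adjusted p = 0.00410).

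Single agents gave positive PMAIP1 changes, none of them called in the main test. Those of MYCi975 in H460 and of both agents in H1703 passed with another fit. MYCi975 gave 0.90 ± 0.49 in H460 (0.78 ± 0.13 with the batch term, adjusted p = 4.43e-04; 0.76 ± 0.14 with the block, adjusted p = 0.0117). In H1703 it gave 0.62 ± 0.28 (batch term adjusted p = 0.00203, block 9.84e-04), and TMP195 gave 0.91 ± 0.28 (adjusted p = 0.0516, with the batch term 6.42e-05, with the block 2.98e-05). In H838 MYCi975 gave 0.80 and TMP195 0.68 ± 0.25, neither called with the batch term or the block. TMP195 replicates 1 to 3 there belong to another batch than the vehicle's. Replicate 4, the batch TMP195 and vehicle share, gave a ratio of 1.1, and the batch term 0.14 ± 0.30. Treatment and batch cannot be told apart in the other 3. Bulk RNA cannot tell fewer cells with a transcript from less of it per cell, here and below.

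**Figure D2:**
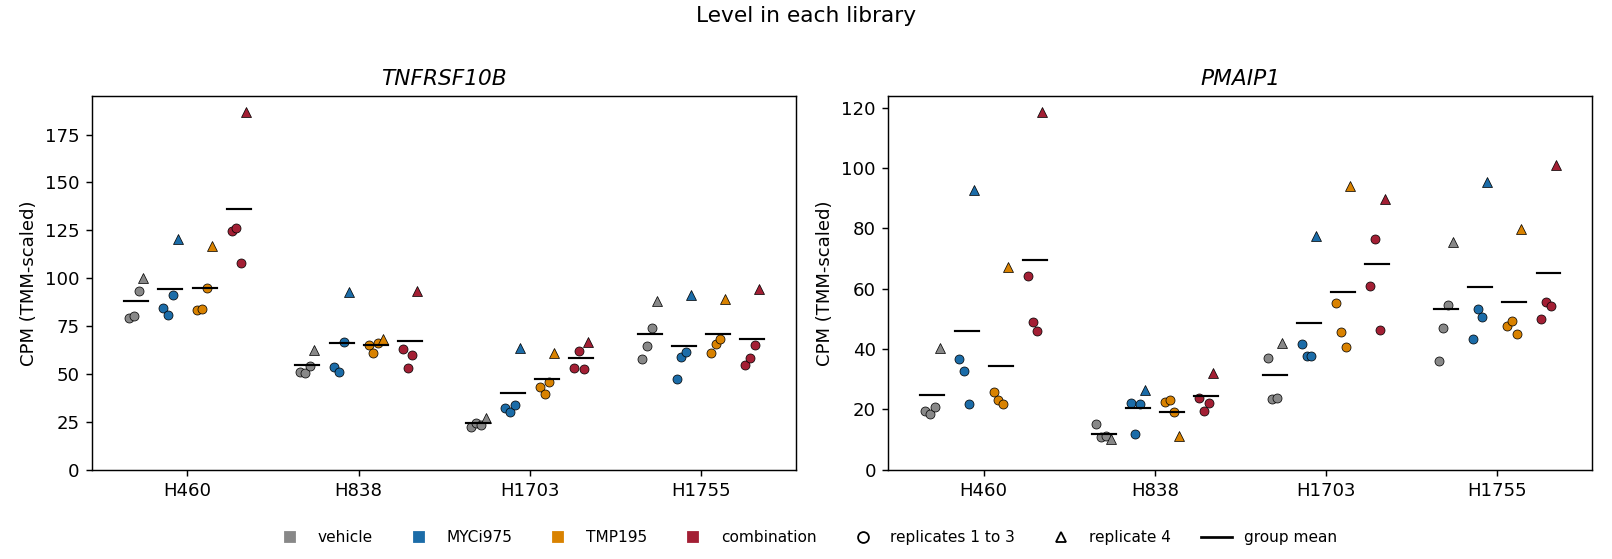
Level of TNFRSF10B and PMAIP1 in each of the 64 libraries (CPM, linear axis from 0), by line and treatment; circles are replicates 1 to 3, triangles replicate 4, and bars the means of 4 libraries. In H1703 the treated libraries of TNFRSF10B sit between 29.98 and 66.5 CPM, above the vehicle libraries at 22.3 to 26.9 CPM.

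BID fell in H1703. The gene lies at chr22:17734138-17774770 on the minus strand. Its vehicle libraries there held 31.6, 32.1, 32.5 and 29.5 CPM. MYCi975 libraries held 24.9, 25.4, 28.7 and 19.3 CPM, TMP195 libraries 24.4, 26.04, 24.96 and 25.8 CPM and combination libraries 20.5, 20.4, 21.2 and 16.1 CPM. Every treated library was below every vehicle library. The change was -0.70 ± 0.11 with the combination (adjusted p = 1.20e-04), with ratios of 0.650 in the first batch and 0.548 in replicate 4. MYCi975 gave -0.36 ± 0.11 (adjusted p = 0.0480), close to the threshold: leaving out any 1 of 14 of the line's 16 libraries ended that call (values -0.39 to -0.25, adjusted p 0.0548 to 0.15), MYCi975 replicate 3 and combination replicate 4 being the exceptions. TMP195 gave -0.31 ± 0.11 (adjusted p = 0.0878; 0.0137 with the batch term and 0.0119 with the block). In H838 the combination gave -0.28 ± 0.13, called with the batch term (adjusted p = 0.0147) and the block (0.0233), and in H1755 -0.21 ± 0.16, called with the block (adjusted p = 0.0417). In H460 it gave -0.07 ± 0.12.

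MCL1 encodes a protein of short half-life that PMAIP1's product can bind. It lies at chr1:150574551-150579738 on the minus strand and was the most abundant of the 10 genes. Combination libraries of H460 held 451, 396, 480.0 and 634 CPM, against 268, 245, 364 and 284 CPM in vehicle, with no overlap. The change was 0.76 ± 0.18 (adjusted p = 0.0104), and the ratio was 1.2 in the first batch, 1.76 in the overlap-counted libraries and 2.23 in replicate 4. In the first batch alone, with 2 combination libraries and 1 of vehicle, it was 0.28, and the call was lost. Leaving out replicate 1 of every group also ended the call (0.76, adjusted p = 0.0945). In H1703 the combination raised MCL1 from 215, 236, 215 and 191 CPM to 274, 274, 300.4 and 357 CPM. That change was 0.48 ± 0.10 (adjusted p = 9.47e-04) and was called in all 28 alternatives tried for it. MYCi975 gave 0.42 ± 0.18 in H460, called with the batch term only (adjusted p = 0.0329), and TMP195 0.25 ± 0.17 in H838, called with the block only (adjusted p = 0.0301). In H838, treatment and batch cannot be told apart in replicates 1 to 3 of TMP195 and vehicle. Replicate 4, the batch both share, gave a ratio of 1.11, and the batch term 0.25 ± 0.10 (adjusted p = 0.431). In H1755 the 3 treatments gave 0.05 ± 0.12, 0.08 ± 0.12 and 0.04 ± 0.12.

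BCL2L1, whose long product BCL-XL protects cells and whose short product does not, was called in H460. It lies at chr20:31664452-31723989 on the minus strand. Combination libraries held 39.5, 38.5, 37.8 and 52.8 CPM, against 27.4, 24.6, 30.3 and 25.98 CPM in vehicle, and did not overlap with them. The change was 0.64 ± 0.13 (adjusted p = 0.00352), with ratios of 1.26, 1.52 and 2.03 over the 3 batches, and 0.34 in the first batch alone (adjusted p = 0.277). MYCi975 libraries held 33.3, 33, 33.2 and 46.2 CPM, all above vehicle, for a change of 0.43 ± 0.13 that was called with the batch term only (adjusted p = 0.0128). TMP195 gave -0.10 ± 0.13. The other lines gave -0.08 ± 0.11 (H838), -0.06 ± 0.10 (H1703) and 0.03 ± 0.11 (H1755) with the combination, and the test of line by combination called the gene (adjusted p = 0.00645). Counts per gene do not separate the long and short forms. In addition, 1424 of the gene's 3314 exonic bases overlap the antisense gene ABALON, and the strand setting of the counting is not given in the sources used here.

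**Figure D3:**
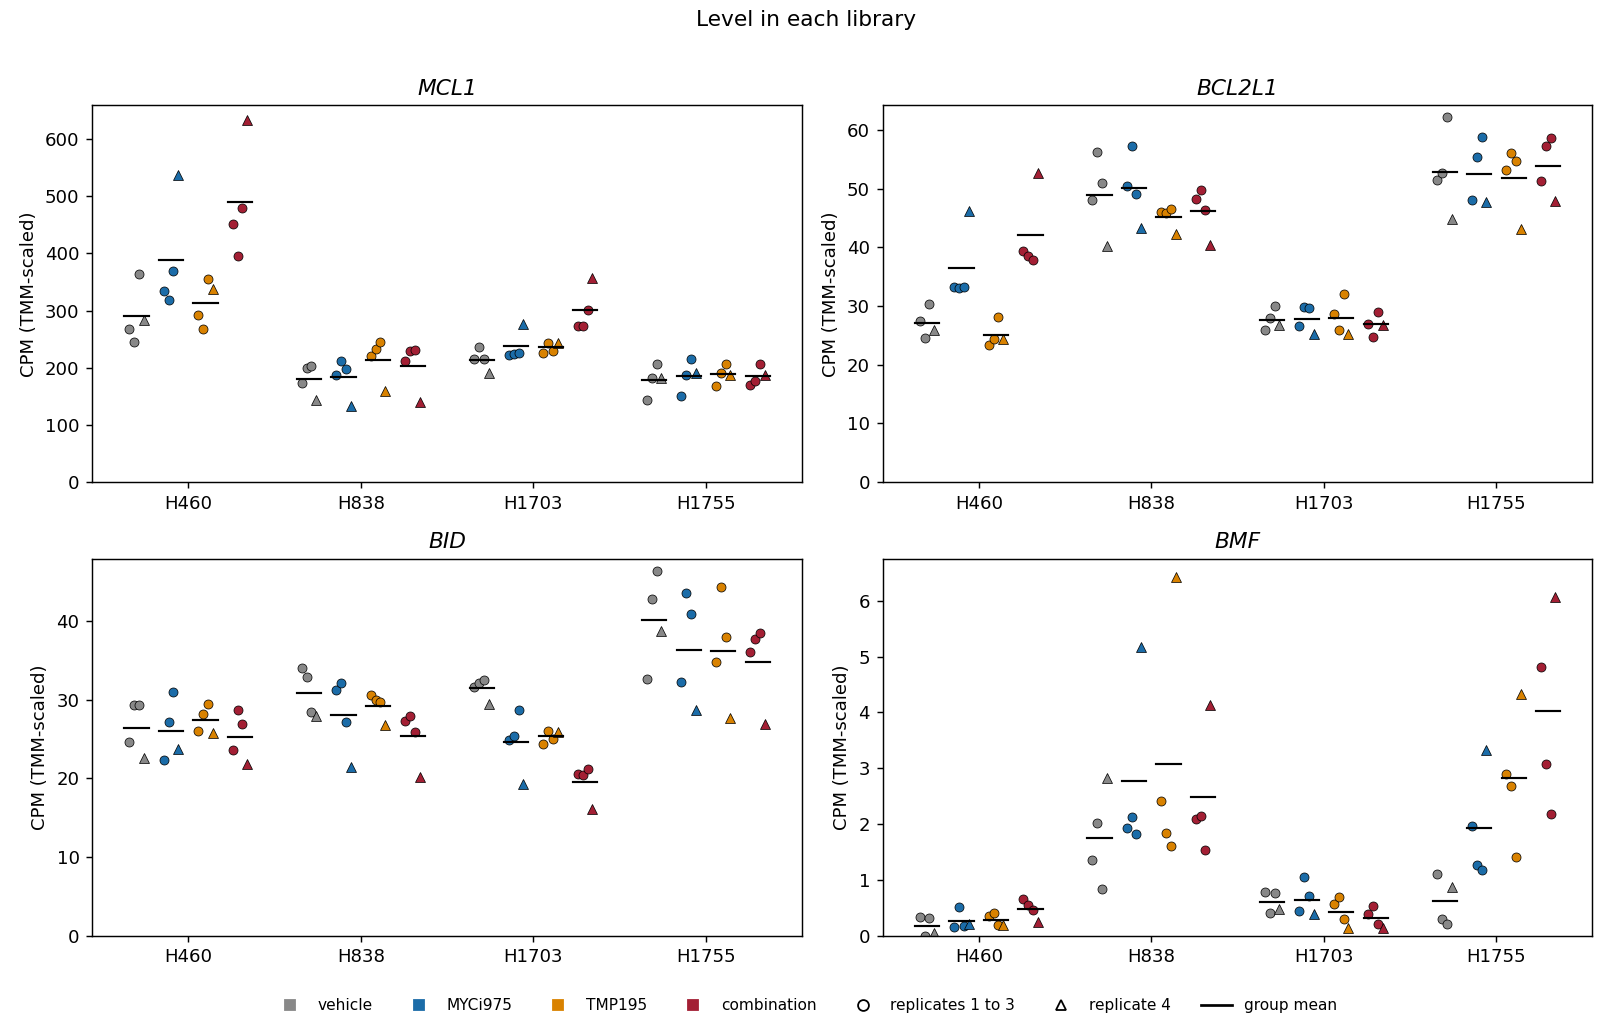
Level of MCL1, BCL2L1, BID and BMF in each of the 64 libraries (CPM, linear axes from 0), by line and treatment; circles are replicates 1 to 3, triangles replicate 4, and bars the means of 4 libraries. BID in H1703 drops from 29.5 to 32.5 CPM in vehicle to 16.1 to 21.2 CPM with the combination, and BMF stays under 7 CPM everywhere.

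BCL2 changed little, and its 2 calls were lower in H460 with the combination and higher in H1703 with TMP195. The main test of line by treatment did not call it for any treatment (adjusted p = 0.572 for TMP195 and 0.65 for the combination). With the replicate block that test called it for TMP195 (adjusted p = 2.45e-05) and the combination (0.00801). The gene lies at chr18:63123346-63320128 on the minus strand. In H460 it fell with the combination, from 48.3, 42.1, 48.8 and 51.99 CPM to 36.8, 40.1, 39.04 and 40.9 CPM, all below vehicle. That change was -0.28 ± 0.06 (adjusted p = 0.00738), with ratios of 0.811, 0.815 and 0.786 over the batches. The call was lost in the first batch alone (-0.29, adjusted p = 0.333), without replicate 1 (-0.25, 0.134) or replicate 3 (-0.28, 0.0618) of every group, and in 1 fit of all 64 libraries (-0.29, 0.555). TMP195 gave -0.25 ± 0.06 there, called with the batch term (adjusted p = 0.0245) and the block (0.0295). In H1703 TMP195 raised it from 10.6, 8.77, 10.2 and 13.2 CPM to 17.1, 13.6, 11.2 and 17.03 CPM, groups that overlap. The change of 0.46 ± 0.14 (adjusted p = 0.0426) was lost when any 1 of 10 libraries was left out (values 0.38 to 0.50, adjusted p 0.0513 to 0.142): vehicle replicates 1, 2 and 3, MYCi975 replicates 1 and 2, TMP195 replicates 1, 2 and 4, and combination replicates 2 and 3. It was 0.45 with RLE size factors (adjusted p = 0.0501). MYCi975 gave 0.28 ± 0.14 there, called with the block only (adjusted p = 0.0451).

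In H1755 replicate 4 held far less BCL2 than its fellows. Vehicle libraries held 57.02, 52.1, 50.97 and 22.9 CPM and combination libraries 42, 38.3, 37.5 and 18.3 CPM. The groups overlap through replicate 4, while within the first batch and within replicate 4 the ratios were 0.736 and 0.800. The change of -0.43 ± 0.37 was not called, and was -0.42 ± 0.08 with the batch term (adjusted p = 5.80e-04) and -0.42 ± 0.06 with the block (adjusted p = 1.91e-05). TMP195 gave -0.28 ± 0.07 with the batch term (adjusted p = 0.0343) and -0.28 ± 0.06 with the block (adjusted p = 0.00492), and MYCi975 -0.23 ± 0.06 with the block (adjusted p = 0.0244). In H838 none of the 3 treatments was called for BCL2.

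BCL2L11 encodes BIM, which binds all the protective family members. It lies at chr2:111119378-111168447 on the plus strand, and 727 of its 6658 exonic bases overlap MIR4435-2HG on the other strand. In H460 it fell from 19.6, 18.2, 19.1 and 23.4 CPM in vehicle to 15.4, 16.6, 13.9 and 15.9 CPM with the combination, with no overlap. The change was -0.37 ± 0.10 (adjusted p = 0.0249), and the batches gave ratios of 0.798, 0.816 and 0.679. It was lost without vehicle replicate 1 (-0.38, adjusted p = 0.0527), vehicle replicate 4 (-0.30, 0.0705), combination replicate 1 (-0.38, 0.0536) or combination replicate 3 (-0.33, 0.0683), and with no filter on low counts (-0.39, adjusted p = 0.0539). Leaving out any 1 replicate number of every group also ended it (-0.45 to -0.31, adjusted p 0.065 to 0.108). So did 1 fit of all 64 libraries (-0.38, adjusted p = 0.347). In H838 the combination gave -0.36 ± 0.27, called with the batch term (adjusted p = 0.00701) and the block (0.0170); replicate 4 stood at 39.1 CPM in vehicle and 29.9 CPM with the combination, above the other libraries of its group. In H1755 it gave -0.27 ± 0.26, called with the block (adjusted p = 0.00191), as MYCi975 was (-0.22 ± 0.07, adjusted p = 0.0439). In H1703 it gave 0.04 ± 0.12.

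BMF, a BH3-only protein held at the cytoskeleton, was scarce but rose in H1755. The gene lies at chr15:40087890-40108892 on the minus strand, with 461 exonic bases shared with BMF-AS1 on the other strand. Vehicle libraries of H1755 held 1.103, 0.301, 0.211 and 0.871 CPM, or 4 to 22 counts, and combination libraries 4.82, 3.07, 2.17 and 6.06 CPM, or 38 to 172 counts. The groups did not overlap. The change was 2.66 ± 0.52 (adjusted p = 0.0160), with ratios of 6.23 in the first batch and 6.96 in replicate 4. This call was lost without vehicle replicate 2 (2.45, adjusted p = 0.0637). It was also lost without replicate 1 (2.965, adjusted p = 0.1245), replicate 2 (2.55, 0.22) or replicate 3 (2.59, 0.064) of every group. MYCi975 gave 1.62 ± 0.53 and TMP195 2.16 ± 0.52, with every treated library above vehicle. Neither was called (adjusted p = 0.634 and 0.127), and both were with the batch term (adjusted p = 0.0215 and 5.93e-04) and the block (8.16e-05 and 1.75e-07). In H1703, at 4 to 21 counts in the libraries compared, the combination gave -0.98 ± 0.48, called with the batch term (adjusted p = 0.0238) and with the replicate block (adjusted p = 0.0345), although the numbers do not pair the libraries of that comparison. H460 gave 1.44 ± 0.72, called with the batch term only (adjusted p = 0.0488). In H838 TMP195 gave 0.81 ± 0.48, called with the block only (adjusted p = 0.0303). Treatment and batch cannot be told apart there in replicates 1 to 3, and replicate 4 gave a ratio of 2.28. The test of line by combination called BMF (adjusted p = 0.0135).

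BAK1 and BIK were not called for any treatment in the main test. BAK1, at chr6:33572547-33580293 on the minus strand, ranged from 9.31 to 18.0 CPM over the 64 libraries, and its 12 changes against vehicle ran from -0.18 to 0.08. Of those 12, edgeR called 0 and DESeq2 0, and unadjusted p was below 0.05 for 0. BIK, a BH3-only protein of the endoplasmic reticulum at chr22:43110748-43129712 on the plus strand, reached at most 28 counts and 1.07 CPM in any library. It was tested in H460 and H1703 only. Of its 6 tests edgeR called 0, DESeq2 called 0, and 1 had an unadjusted p below 0.05. That was the combination in H460, from 0.532, 0.181, 0.0460 and 0.0794 CPM in vehicle to 0.560, 0.390, 0.762 and 0.394 CPM, a change of 1.29 ± 0.59 called with the batch term only (adjusted p = 0.0294).

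**Figure D4:**
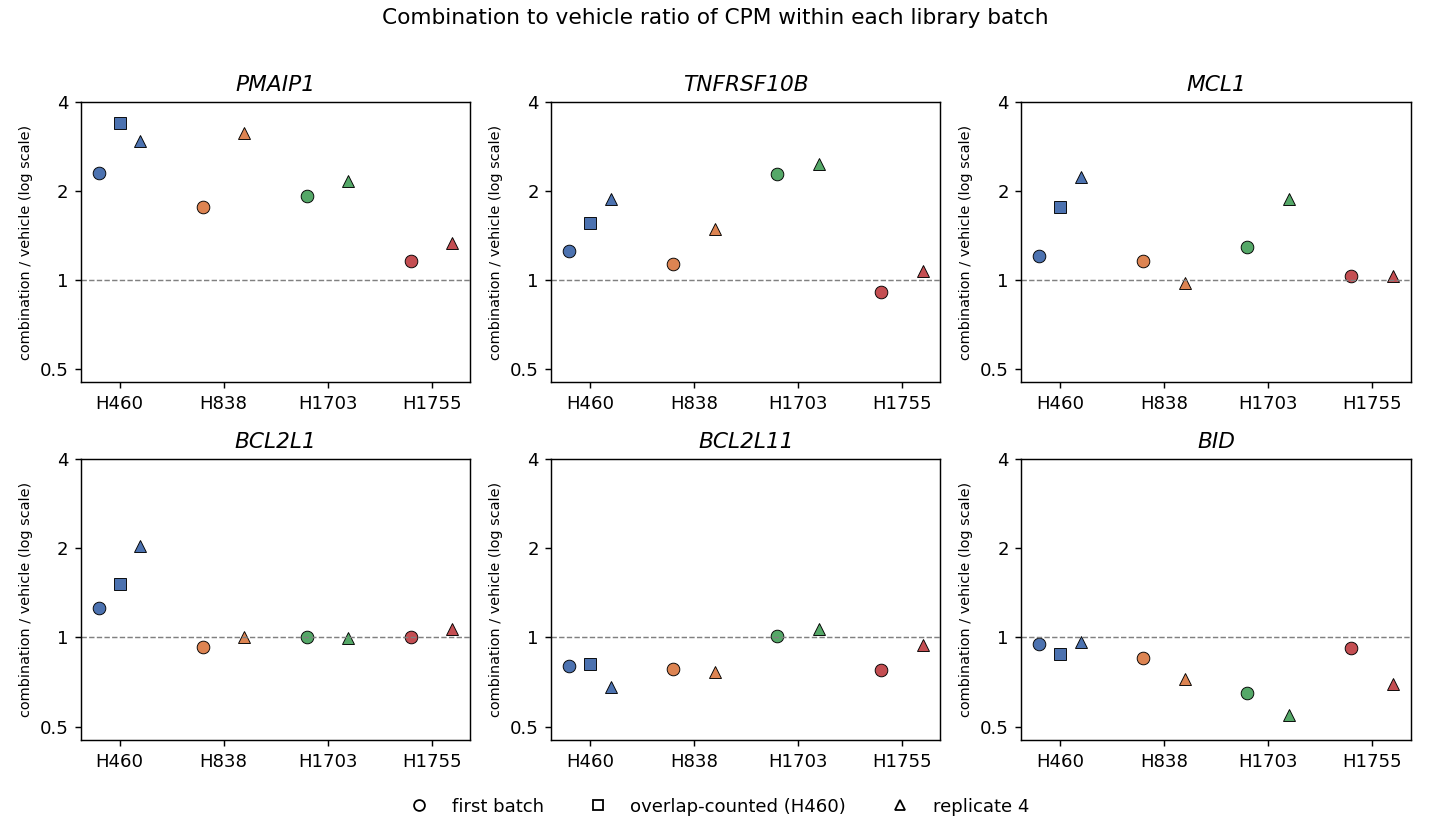
Ratio of mean CPM with the combination to that with vehicle (log scale, dashed line at 1) within each library batch, for 6 genes and 4 lines; each point rests on 1 to 3 libraries a group. PMAIP1 lies above 1 in every batch, from 1.16 in H1755 to 3.39 in the overlap-counted libraries of H460, and BID in H1703 at 0.65 and 0.548.

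Setting the combination against each single agent asks whether both compounds together differ from either alone. Against MYCi975, edgeR called 0 of the 38 pairs and DESeq2 2, and unadjusted p was below 0.05 for 6. Of all genes, 1.06% (H460), 0.0242% (H838), 1.7% (H1703) and 0.0594% (H1755) were called. Against TMP195 the 1 call was BCL2L1 in H460 (0.74 ± 0.13, adjusted p = 0.00876; 3.91% of all genes), while unadjusted p was below 0.05 for 6 pairs and 5 were called by DESeq2. This BCL2L1 call was lost in the first batch alone, which holds 1 TMP195 library of H460 (0.44). It was also lost without replicate 1 (0.73, adjusted p = 0.21) or replicate 2 (0.77, 0.143) of every group. The shares of all genes in the other lines were 0.0436% (H838), 4.87% (H1703) and 0% (H1755). With the batch term 5 pairs were called against MYCi975, 2 in H460 (10.8% of all genes) and 3 in H1703 (14.4%). Against TMP195 it called 7, 4 in H460 (17.1%) and 3 in H1703 (18.5%).

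PMAIP1 and TNFRSF10B in H460 were higher with the combination than with either agent in that fit. PMAIP1 differed from MYCi975 by 0.76 ± 0.12 (adjusted p = 3.59e-04) and from TMP195 by 1.14 ± 0.12 (adjusted p = 7.15e-06). TNFRSF10B differed by 0.51 ± 0.08 (adjusted p = 2.41e-04) and 0.49 ± 0.08 (adjusted p = 1.94e-04). MCL1 and BCL2L1 there differed from TMP195 alone, by 0.58 ± 0.11 (adjusted p = 0.00117) and 0.72 ± 0.10 (adjusted p = 6.51e-05). In H1703 MCL1 was higher (0.37 ± 0.09 and 0.37 ± 0.09, adjusted p = 0.00791 and 0.00534) and BID lower (-0.34 ± 0.10 and -0.40 ± 0.10, adjusted p = 0.0225 and 0.00666) than with either agent. TNFRSF10B in H1703 was higher than with MYCi975 alone (0.51 ± 0.11, adjusted p = 0.00451), and BCL2 lower than with TMP195 alone (-0.40 ± 0.12, adjusted p = 0.0222). In H1755, where the numbers pair the libraries, BMF was higher than with MYCi975 in the block fit (1.05 ± 0.19, adjusted p = 6.47e-04; 3.19% of all genes).

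Whether the combination departed from the sum of both single-agent changes on the log2 scale was tested too. For these genes edgeR called 0 of 38 pairs and DESeq2 0, and unadjusted p was below 0.05 for 1. Over all genes the test called 0% in H460, H838 and H1755 and 0.144% in H1703. The 1 pair was BCL2 in H1703, at -0.66 ± 0.20 (adjusted p = 0.343), which passed with the batch term (-0.69 ± 0.16, adjusted p = 0.0407; 1.06% of all genes). Each single agent gave a positive BCL2 change there, and the combination 0.08 ± 0.14.

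Across lines (H460, H838, H1703, H1755) the test of line by treatment called 0 of the 10 genes for MYCi975 (0.004% of all genes; 1 with an unadjusted p below 0.05, 0 in DESeq2), 1 for TMP195 (1.02%) and 3 for the combination (8.84%), those given above. PMAIP1 under the combination, at 1.50 ± 0.50, 1.05 ± 0.25, 1.10 ± 0.29 and 0.28 ± 0.30 in these lines, was not called (adjusted p = 0.251), and was with the batch term (adjusted p = 0.00927). BID under the combination had an adjusted p of 0.107, and 0.0252 with the batch term.

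Lines also differed before treatment. Of 60 comparisons of vehicle levels, the 10 genes over 6 pairs of lines, 37 were called, near the share of all genes called between lines: 62.7%, 61.6% and 60.2% for H838, H1703 and H1755 against H460, 59.7% and 55.9% for H1703 and H1755 against H838, and 58.8% for H1755 against H1703. TNFRSF10B differed in all 6 pairs, in the order H460 (88.1 ± 10.2 CPM, SD, n = 4), H1755 (71.05 ± 13.1 CPM), H838 (54.5 ± 5.65 CPM) and H1703 (24.1 ± 2 CPM). Its lowest line is the one in which it rose most, but the order did not hold for the other lines. With the combination its highest line, H460, gave 0.63, against 0.31 in H838 and -0.06 in H1755. The same vehicle libraries enter both the level and the change. BCL2 fell into a high pair of lines, H460 (47.8 ± 4.15 CPM) and H1755 (45.7 ± 15.4 CPM), and a low pair, H838 (11.5 ± 1.05 CPM) and H1703 (10.7 ± 1.83 CPM). Within neither pair did the lines differ beyond their spread (adjusted p = 0.764 and 0.686), while H838 was below H460 by 2.05 ± 0.21 on the log2 scale (adjusted p = 1.94e-07).

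BCL2L1 paired the lines differently. H1755 (52.8 ± 7.19 CPM) and H838 (48.9 ± 6.699 CPM) were high, and H1703 (27.7 ± 1.81 CPM) and H460 (27.1 ± 2.43 CPM) low, with no call inside either pair. MCL1 was highest in H460 (290.1 ± 51.4 CPM), and H1703 (214 ± 18.4 CPM), H838 (180.4 ± 27.6 CPM) and H1755 (179 ± 26.2 CPM) did not differ from each other by the test. PMAIP1 ran from H1755 (53.3 ± 16.7 CPM) over H1703 (31.4 ± 9.45 CPM) and H460 (24.7 ± 10.4 CPM) to H838 (11.8 ± 2.15 CPM), where only the neighbours H1703 and H460 were not called (adjusted p = 0.261). For BCL2L11, H1755 (44.5 ± 10.2 CPM) stood above H838 (25.2 ± 9.31 CPM), H460 (20.1 ± 2.304 CPM) and H1703 (17.9 ± 1.93 CPM), and among these 3 only H838 and H1703 differed (adjusted p = 0.0447). BID was highest in H1755 (40.1 ± 5.89 CPM) and did not differ by the test among H1703 (31.4 ± 1.34 CPM), H838 (30.8 ± 3.06 CPM) and H460 (26.4 ± 3.41 CPM).

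BAK1, BMF and BIK complete the set. BAK1 ran from H1703 (15.2 ± 2.45 CPM) and H1755 (14.1 ± 1.78 CPM) to H838 (11.8 ± 0.670 CPM) and H460 (11.1 ± 1.26 CPM), and no neighbours in that order differed by the test, while the 3 wider pairs did. BMF was highest in H838 (1.76 ± 0.857 CPM), then H1755 (0.622 ± 0.434 CPM) and H1703 (0.608 ± 0.190 CPM), which did not differ, and H460 (0.172 ± 0.177 CPM). BIK lay between 0.210 and 0.437 CPM on average with no call: 0 of 6 pairs in edgeR, and 0 with an unadjusted p below 0.05. Per length, MCL1 was at the highest level of the 10 genes in each line, from 40.95 ± 6 CPM per kb of exon in H1755 to 66.4 ± 11.8 in H460. TNFRSF10B was at 17.1 ± 1.97 in H460 and 4.68 ± 0.388 in H1703, PMAIP1 at 23.9 ± 7.46 in H1755, and BMF at 0.0316 ± 0.0324 in H460 on the same scale.

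**Figure D5:**
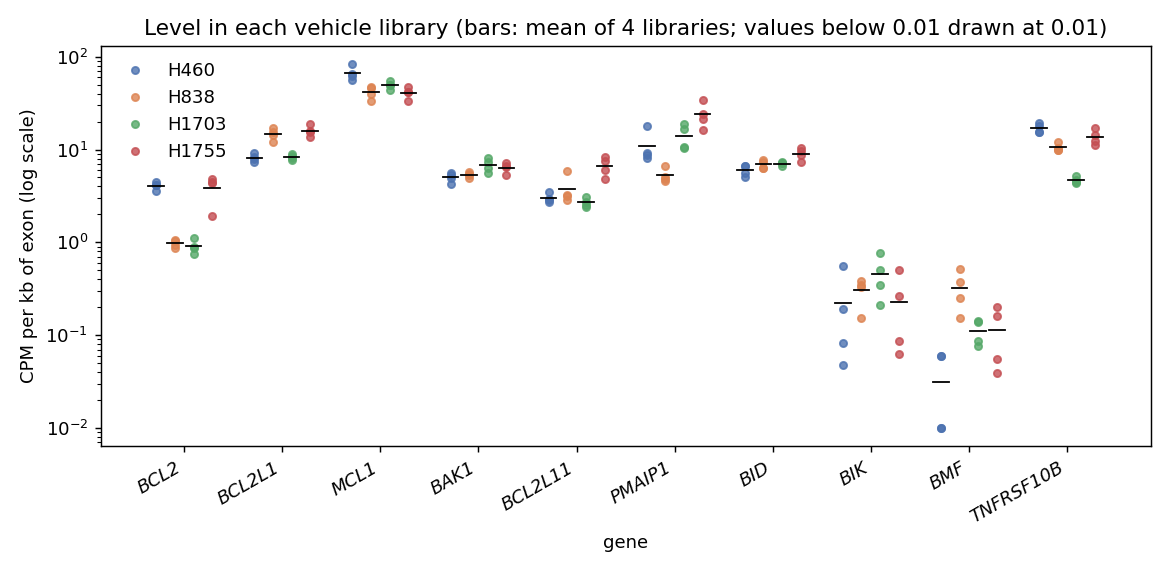
Level of the 10 genes in each vehicle library, as CPM per kb of exon (log axis), by line; dots are libraries, bars are means of 4, and values below 0.01 are drawn at 0.01. MCL1 is highest in each line and BIK and BMF are lowest, and BCL2 forms a high pair (H460, H1755) and a low pair (H838, H1703).

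Other genes of the same routes were taken as 8 lists. Most of their calls lie in H1703, where 10.2%, 9.65% and 38.3% of all genes were called with MYCi975, TMP195 and the combination. With the batch term these shares of all genes were 24.5%, 22.7% and 45.8%. For the other lines the batch term called 31.5% (H460), 17.7% (H838) and 15% (H1755) with the combination, and 0.32% to 7.5% with single agents. The counts with the batch term below stand beside these shares. Among other BH3-only genes (BBC3, BAD and HRK), 8 of 33 tests against vehicle were called, all higher, 6 of them in H1703 (with the batch term 10 higher and 2 lower). HRK, which binds BCL2 and BCL-XL, rose in H460 with MYCi975 (2.07 ± 0.33, adjusted p = 0.0127) and the combination (2.66 ± 0.33, adjusted p = 1.69e-04). In H1703 it went from 10.5, 10.01, 10.9 and 10.5 CPM in vehicle to 22.98, 22.8, 22.8 and 21.8 CPM with the combination (1.09 ± 0.10, adjusted p = 9.57e-07), and also rose with both single agents. BBC3 (PUMA) rose in H1703 with all 3 treatments, by 1.06 ± 0.18 with the combination (adjusted p = 2.26e-04), and BAD was called in 2 comparisons, with the batch term only. Other protective genes gave 2 calls of 15 (with the batch term 6 higher and 0 lower), both BCL2L2 (BCL-w) under the combination, in H838 (0.40 ± 0.11, adjusted p = 0.0489) and H1703 (0.31 ± 0.08, adjusted p = 0.00693). Of the other effectors, BOK fell under the combination in H838 (-0.52 ± 0.14) and H1703 (-0.49 ± 0.13), 2 calls of 24 tests. With the batch term this list had 0 higher and 6 lower, of which 3 were BAX, uncalled otherwise. Distant relatives of the family gave 2 calls of 54 (with the batch term 8 higher and 5 lower): under the combination in H1703, BCL2L13 rose (0.66 ± 0.13) and BCL2L12 fell (-0.54 ± 0.15).

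Death receptors were called in both directions, with 6 higher and 3 lower calls of 72 tests, 6 of them in H1703 (with the batch term 10 higher and 4 lower). TNFRSF25 (death receptor 3) rose with the combination in H460 (1.44 ± 0.25), H838 (1.00 ± 0.26) and H1703 (0.91 ± 0.15) and with MYCi975 in H1703. FAS, the receptor of FAS ligand, fell in H1703 with each treatment, from 6.53, 6.08, 6.101 and 5.31 CPM in vehicle to 2.196, 3.505, 2.58 and 2.08 CPM with the combination (-1.23 ± 0.20, adjusted p = 1.19e-04). In that line TNFRSF10B rose while FAS fell. TNFRSF21 (death receptor 6) rose with the combination in H460 (1.16 ± 0.17) and H1703 (0.71 ± 0.16). TNFSF10 (TRAIL itself), FASLG, TNF and TNFRSF10C were too low to be tested in any line.

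Below the receptors, the adaptor and caspase genes of the death complex gave 1 higher and 2 lower calls of 69 (with the batch term 5 higher and 4 lower). CFLAR, whose product blocks caspase-8, rose in H460 with the combination from 35.5, 38.6, 39.8 and 29.1 CPM to 72.02, 74.7, 64.8 and 86.2 CPM (1.06 ± 0.16, adjusted p = 5.02e-04). FADD, the receptor adaptor, fell in H1703 with MYCi975 (-0.45 ± 0.13) and the combination (-0.56 ± 0.13). Genes of the apoptosome, caspases and their inhibitors gave 2 higher and 14 lower calls of 156, 13 of them in H1703 (with the batch term 9 higher and 36 lower). BIRC5 (survivin), which is also a cell division gene, fell in H1703 with all 3 treatments (-1.45 ± 0.16 with the combination, adjusted p = 3.29e-06) and in H460 with the combination (-0.67 ± 0.13). CASP9, the initiator caspase of the mitochondrial route, fell in H460 (-0.72 ± 0.20) and rose in H1703 (0.51 ± 0.15) with the combination.

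For the stress regulators 15 of 48 tests were called, all higher, 10 of them in H1703 (with the batch term 23 higher and 0 lower). ATF4 had 7 calls and 9 with the batch term, and DDIT3 4 and 8. ATF4 rose in H460 and H1703 with all 3 treatments and in H838 with the combination. In H838 its vehicle libraries held 119.8, 126, 114 and 102 CPM and its combination libraries 267, 202, 252 and 305 CPM (1.15 ± 0.17, adjusted p = 0.00236). DDIT3, which encodes CHOP, rose in H460 with the combination (1.90 ± 0.40, adjusted p = 0.00538). In H1703 it rose with MYCi975 (1.51 ± 0.29), TMP195 (1.81 ± 0.29) and the combination (2.50 ± 0.30), from 31.2, 27.9, 29.4 and 35.2 CPM in vehicle to 162, 179, 151 and 215 CPM.

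Genes whose change over the 12 treated groups most resembled that of TNFRSF10B or PMAIP1 were looked up among 16565 genes tested in all 4 lines. For TNFRSF10B they were LRRC8D (Pearson r = 0.979), ZBTB21 (r = 0.975) and MTMR2 (r = 0.974). For PMAIP1 they were PARP3 (r = 0.972), KLHL29 (r = 0.969) and PRNP (r = 0.953). These describe 12 groups that share vehicle libraries within each line and carry no test.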

How the data were processed

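RNA from 64 libraries of 4 cell lines was analysed from 1 deposited table of raw counts per gene, whole numbers with 1 column per library, which the authors made with Trimmomatic, STAR and featureCounts on GRCh38 (hg38), per the submitters' processing notes; versions, annotation release and strand setting are not given in the sources used here. Libraries came from a stranded total RNA kit, per the labels' protocols. Columns were matched to samples by line, treatment and replicate, with 0 left over. For H838, TMP195 replicate 1 was placed by its title, since 2 of its label fields name the line otherwise. No 2 libraries held identical counts.

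Counts were scaled by TMM, filtered with filterByExpr and fitted per line with 4 group means in edgeR 4.0.16 (R 4.3.3), testing by quasi-likelihood with Benjamini-Hochberg adjustment over all genes of the line. SE was obtained from the fold change and the F statistic (absolute log2 value over root F). DESeq2 1.42.0 and the fits named below were alternatives. Fits were checked on simulated counts. Gene positions came from GENCODE 29, and figures from matplotlib 3.10.9.

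The genes, lists and tests were chosen with earlier results of these data known. All 10 genes are named, with at most 3 genes of each other list, those called most often; some genes of these lists are counted but not reported here by name. Same-numbered libraries were taken as pairs where every correlation of their deviations exceeded 0.1, in 12 of 20 comparisons: MYCi975 and TMP195 against vehicle in H460 and H1703, TMP195 or the combination against vehicle and the combination against TMP195 in H838, and all 5 in H1755. The labels state no shared day, and same-numbered libraries often share a batch. Batches were inferred from counts of EEF1G, the style of column names and replicate 4, since the labels give none.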

Additional observations from a re-analysis of the deposited data

Results flagged for a closer look

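In 21 of 160 groups of 4 libraries, 1 library lay far from the other 3, where chance alone gives about 1 in 20 groups. Replicate 4 was that library in 16 of the 21. For PMAIP1 it was the highest in H460 vehicle (40.2 CPM, next 20.7) and H460 TMP195 (67.2, next 25.8). It was also the highest in H1703 MYCi975 (77.4, next 41.8), H1755 TMP195 (79.9, next 49.2) and H1755 combination (100.9, next 55.5). For BCL2 in H1755 it was the lowest with MYCi975 (16.5 CPM, next 47.5) and TMP195 (17.9, next 41.8). For BCL2L1 in H460 it was the highest with MYCi975 (46.2 CPM, next 33.3) and the combination (52.8, next 39.5). In H838 it was the highest for BCL2L11 in vehicle (39.1 CPM, next 21.6) and TMP195 (34.6, next 20.3) and for BMF with MYCi975 (5.17, next 2.12) and TMP195 (6.43, next 2.42). In H1703 it was the highest with MYCi975 for MCL1 (276.6 CPM, next 226) and TNFRSF10B (63.3, next 33.97), and the lowest for BID with the combination (16.1, next 20.4). The part of the library batch in these values was not tested.

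Other libraries stood apart for 5 groups. BCL2 was lowest in TMP195 replicate 3 of H838 (7.30 CPM, next 10.0) and BCL2L11 in combination replicate 3 of H1703 (16.6, next 19.2). BIK was highest in TMP195 replicate 1 of H1703 (1.07, next 0.444) and lowest in TMP195 replicate 3 of H1755 (0.0885, next 0.284). BMF was highest in MYCi975 replicate 2 of H460 (0.519, next 0.207).

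Effects of a treatment differed between lines by the interaction test in edgeR for TNFRSF10B with TMP195 (adjusted p = 0.0303) and the combination (0.0036), for BCL2L1 with the combination (0.00645) and for BMF with the combination (0.0135).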

How the results depend on the processing

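No called change of the 10 genes reversed its direction in any alternative tried; 395 values of called results stayed past the threshold and 97 did not. Counts of calls moved with the replicate block (8 for MYCi975, 9 for TMP195 and 19 for the combination against vehicle; 7 against MYCi975, 8 against TMP195, 1 beyond the sum) and the library batch term (7, 7, 19, 5, 7 and 1), from 2, 2, 11, 0, 1 and 0. Line by treatment calls were 1, 4 and 8 with the block, and 2 and 5 with the batch term for TMP195 and the combination, from 0, 1 and 3. The main fit called 0.004%, 1.02% and 8.84% of all genes. The shares in the block and batch term fits of line by treatment are not given here. Their counts therefore say nothing particular about the 10 genes. In comparisons whose numbers do not pair the libraries, the block also called PMAIP1 in H1703 against MYCi975 (0.51, adjusted p = 0.00411) and TNFRSF10B there against TMP195 (0.30, 0.0459). Of line by treatment, it called BCL2 (2.45e-05), PMAIP1 (0.00195) and BMF (0.00427) for TMP195, and BCL2 (0.00801), MCL1 (0.00242), BCL2L11 (0.0292), PMAIP1 (0.000547) and BID (0.00294) for the combination. The cause was not tested. TMP195 against vehicle had 1 call with RLE or 1 fit of all 64 libraries, 4 with DESeq2 and 5 in the first batch alone, which holds no TMP195 library of H838. The combination against MYCi975 had 1 call with no filter, 2 with DESeq2 and 4 in the first batch. Against TMP195 it had 5 with DESeq2, 3 in the first batch, 2 without mitochondrial genes in the totals and 2 in 1 fit. The line by TMP195 test had 2 in the first batch. Leaving out a replicate number or 1 library gave 0 to 2, 0 to 8, 5 to 13, 0 to 6, 0 to 6 and 0 to 0 calls, 26 to 33 between vehicle levels (37 with all), and 0 to 0, 0 to 2 and 0 to 6 for line by treatment. Each of the 4 line by treatment calls was lost without replicate 1 and also without replicate 2. Depth limits BIK and BMF, at 0 to 28 and 0 to 191 counts a library.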

Other observations

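In H1703, further apoptosis genes, chosen after their values were seen, changed with the combination. XIAP, a caspase inhibitor, rose by 0.64 ± 0.13 on the log2 scale (adjusted p = 6.65e-04 in edgeR, 4 libraries against 4), while CASP2 fell (-0.95 ± 0.14, adjusted p = 5.89e-05), as did BIRC3 (-0.60 ± 0.18, adjusted p = 0.0139) and CYCS, which encodes cytochrome c (-0.35 ± 0.10, adjusted p = 0.00843). FOXO3 rose by 0.31 ± 0.10 (adjusted p = 0.0169). These stand beside 38.3% of all genes called in that comparison.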
